A study of Homo sapiens with 9 samples.

Results

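The genes described here are 39 that encode the actin cytoskeleton and proteins linked to serum response factor (SRF), among 62257 gene rows measured in all. They were taken by symbol, each from the row whose Ensembl gene ID carries that symbol, and all 39 had a row. RNA sequencing had been done on A549 cells, a long-established line of epithelial character from a human lung adenocarcinoma. In the control group the cells received phosphate-buffered saline. In the group labelled ddp they received apoptotic extracellular vesicles, the membrane particles shed by dying cells, released during apoptosis that had been set off with cisplatin, which is a platinum compound forming DNA crosslinks. In the group labelled sts the vesicles were released during apoptosis set off with staurosporine, which inhibits many protein kinases. Treatment lasted 96 h in all 3 groups, and each group held 3 libraries. The labels give no genetic difference between the groups. The labels do not say which cells shed the vesicles or whether replicate libraries are independent cultures, and p-values therefore measure the spread between these libraries, which may be technical.

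Actin is kept in balance between free monomers and filaments. Profilin and thymosins bind monomers, cofilin and its partners take filaments apart, tropomyosins and calponins line them, and filamin and alpha-actinin tie them together. The myocardin-related transcription factors (MRTFs, cofactors of SRF) are held back by binding free actin, and are released to the nucleus when monomers are used up. With SRF they switch on many genes of the cytoskeleton itself, among them actins, SRF, vinculin and tropomyosins. SRF binds a short A/T-rich DNA element called the CArG box. In epithelial tumour lines such as A549 the same machinery serves adhesion, contractility and cell shape.

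The promoters of 7 members held a CArG box, and the stretches that carry it are shown because SRF binds this element. RefSeq windows on GRCh38.p14, from 250 bases before to 50 bases after an annotated start, were found for 36 of the 39 members. No entry was used for ACTB, TAGLN and MYL9. The box was searched by its usual consensus, which covers both strands because the consensus reads the same on each, and no other motif was searched. Each line gives 30 bases, 5′ to 3′ on the strand of the gene, with the box in capitals.
SRF, chr6:43171239-43171268 (plus strand): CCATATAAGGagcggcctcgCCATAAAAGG
ACTG1, chr17:81512874-81512903 (minus strand): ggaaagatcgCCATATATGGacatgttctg
FLNA, chrX:154374709-154374738 (minus strand): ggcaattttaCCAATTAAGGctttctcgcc
CNN2, chr19:1026509-1026538 (plus strand): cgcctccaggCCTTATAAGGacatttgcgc
TPM4, chr19:16067355-16067384 (plus strand): aatcctaggtCCAAATAAGGcgagggctgc
ACTN1, chr14:68977718-68977747 (minus strand): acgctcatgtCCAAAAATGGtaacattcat
FHL2, chr2:105438595-105438624 (minus strand): aatctggagaCCTTAAAAGGcacgtgggag
FHL2, chr2:105399091-105399120 (minus strand): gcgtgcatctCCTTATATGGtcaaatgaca
The SRF stretch holds 2 boxes. Of the lines above, those of ACTG1, FLNA and the second FHL2 stretch overlap exons of other transcripts in GENCODE v29 by 18, 19 and 30 bases. The box was present in 9 of 66 member windows (13.6%) and in 454 of 35116 windows of all genes (1.29%). The first FHL2 stretch lay in 2 of these member windows. Counted by gene, 7 of 36 members had it (19.4%), against 1.6% of 27305 genes. Links to SRF were part of the choice of the members, so a share above that of all genes was built into the list. A match describes these letters only and does not show that SRF was bound.

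The total count ran from 14356195 to 15492993 per control library, from 15949255 to 16526399 per ddp library and from 13799950 to 14816996 per sts library. Of 6 epithelial markers, the keratins KRT8 and KRT18 held most of the summed level, which was 11210 to 12262 CPM in control, 6918 to 7511 in ddp and 7284 to 8739 in sts. Mean levels did not all follow the sum, with KRT7 at 1156 CPM in control, 1273 in ddp and 717 in sts, and KRT19 at 114 CPM in control, 94 in ddp and 146 in sts. The adhesion markers EPCAM (3.58, 2.63 and 1.65 CPM in control, ddp and sts) and CDH1 (17.4, 11.1 and 9.34 CPM) were low. Among markers of other cell types, 6 leukocyte markers summed to 10.6 to 16.2 CPM in control, 13.6 to 15.4 in ddp and 20.4 to 25.8 in sts, with PTPRC at 3 reads over all libraries. Of 5 smooth muscle markers, which share SRF control with the genes described here, the sum was 2.26 to 3.55 CPM in control, 2.01 to 2.84 in ddp and 3.53 to 4.78 in sts. The sum of 4 endothelial markers was 1.32 to 1.74 CPM in control, 1.15 to 1.38 in ddp and 2.49 to 4.32 in sts, with PECAM1 at a mean of 0.160 CPM in control and 2.52 in sts. Over all libraries the sums were 2.00 to 3.70 CPM for 6 fibroblast markers and 14.7 to 20.3 for 6 striated muscle markers. The part of these marker differences in the results below was not tested.

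With sts vesicles most of the changed genes of the actin cytoskeleton were lower than in control. Of the 37 members that passed the filter on low counts, 16 fell, 3 rose and 18 were not called at an adjusted p under 0.05 (edgeR's quasi-likelihood test, used for every adjusted p below). The fallen genes included beta-actin, vinculin, filamin A, ezrin, coronin 1C and tropomyosin 1. The share called was 51.4%, against 32.8% of 16947 genes tested, and the share called lower over all genes was 16.8%. Here and below, shares were not matched for read count, which reached 283378 reads over all libraries for ACTG1. The median log2 fold change of the 37 members was −0.17, and that of all genes tested was 0.01. With ddp vesicles, 9 members rose, 5 fell and 23 were not called. That is 37.8%, against 15.5% of all genes tested, with 7.16% called higher and 8.32% called lower. The medians were −0.0034 for the members and −0.0033 for all genes.

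Tested directly between the vesicle types, 18 members were lower and 7 higher with sts than with ddp, and 12 were not called. The share called was 67.6%, against 39.7% of all genes tested, with 20.2% higher and 19.5% lower. The median was −0.26 for the members and 0.03 for all genes. CORO1C, PFN1, TPM1 and VCL rose with ddp and fell with sts. PDLIM7 rose with both and EZR fell with both. ARPC2, CAPZB, FHL2, SRF, TAGLN, TAGLN2, TLN1 and ZYX were called in none of the 3 comparisons. Both comparisons with control use the same 3 control libraries. In bulk RNA a lower level can mean fewer cells expressing a gene or less RNA per cell, and these cannot be told apart. Summed over the 39 members, the level was 16810.4, 15519.8 and 15698 CPM in the control libraries, 16860.4, 17347 and 15941 in ddp and 13717, 15038 and 14268 in sts. All sts libraries lay below all others, and the members took 1.60% ± 0.0594 of the counts in control, 1.65% ± 0.0751 in ddp and 1.44% ± 0.0554 in sts (SD, n = 3). On the FPKM scale, where the short thymosin genes weigh most, the sums were 6631 ± 454 in control, 6920.2 ± 328 in ddp and 6857 ± 490.4 in sts (mean ± SD, n = 3), and the groups overlapped.

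**Figure D1:**
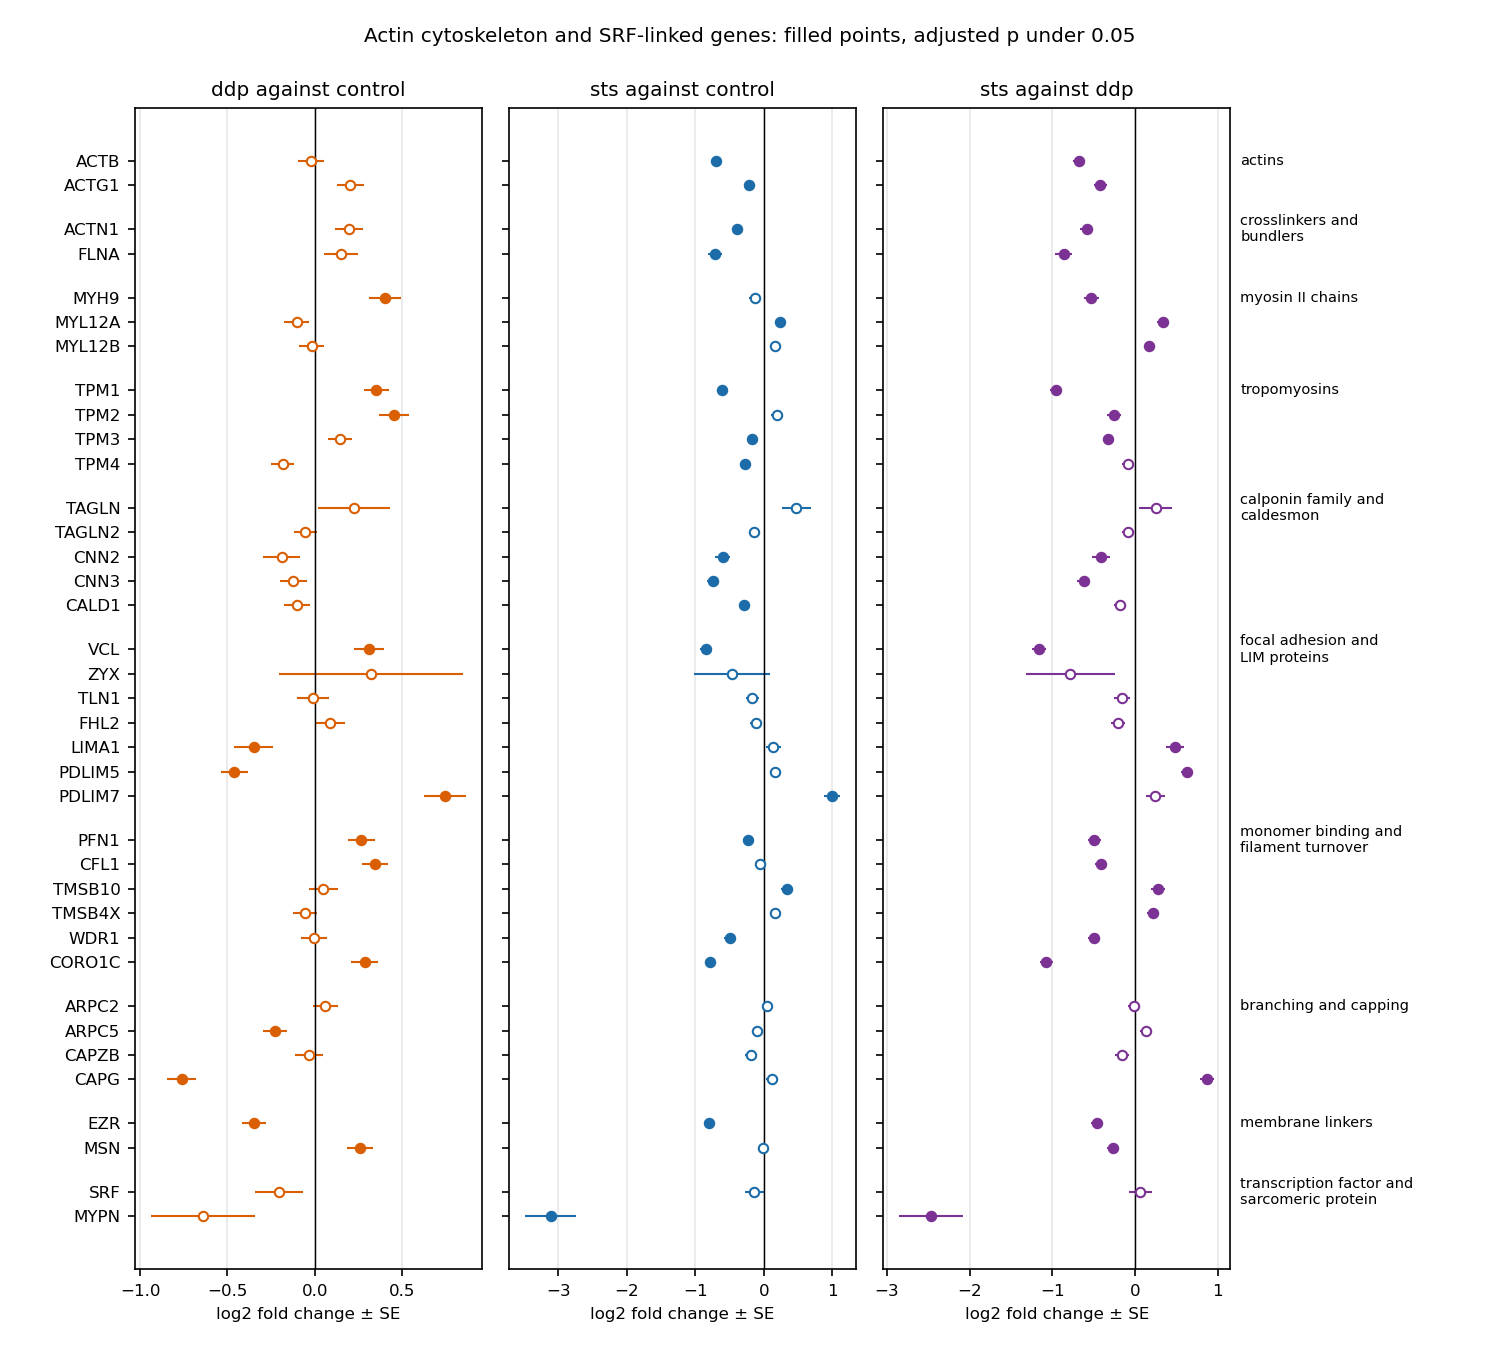
Log2 fold change ± SE of the 37 tested members, grouped by role, in 3 comparisons whose horizontal axes differ in range. Filled points passed an adjusted p under 0.05, and most filled points against control lie left of 0 with sts (16 of 19) and right of 0 with ddp (9 of 14). With ddp, TPM1 on the right and CAPG, EZR and PDLIM5 on the left were the calls kept under every alternative and left-out library.

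SRF itself was not called in any comparison. SRF (ENSG00000112658, chr6:43171269-43181506, plus strand) was at 15.4, 16.8 and 21.4 CPM in control, 15.9, 16.9 and 13.7 CPM in ddp and 17.8, 17.4 and 13.4 CPM in sts. The groups overlapped, and the tests against control gave log2 fold change −0.20 ± 0.137 (SE), adjusted p = 0.362, for ddp and log2 fold change −0.14 ± 0.138 (SE), adjusted p = 0.481, for sts. MYPN (ENSG00000138347, chr10:68087897-68212017, plus strand), a protein of the sarcomere with low levels in these cells, had the largest change of the members in both comparisons of sts. Its level was 4.23, 5.47 and 3.05 CPM in control, 3.50, 2.07 and 2.60 CPM in ddp and 0.771, 0.270 and 0.422 CPM in sts. All sts libraries lay below all others, and MYPN was 8.62-fold lower with sts than in control (log2 fold change −3.11 ± 0.375 (SE), adjusted p = 5.49e-08) and 5.53-fold lower than with ddp (log2 fold change −2.47 ± 0.384 (SE), adjusted p = 3.55e-06). The change from control with ddp was not called (log2 fold change −0.64, adjusted p = 0.155), and the 9 libraries held 341 MYPN reads in all.

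The cytoplasmic actins, which form the filaments, fell with sts and were not called with ddp. ACTB (ENSG00000075624, chr7:5526409-5563902, minus strand), beta-actin, was at 1997, 1754 and 1826 CPM in control, 1769, 2031 and 1705 CPM in ddp and 1101, 1224 and 1122 CPM in sts. The sts libraries were all below the control and ddp libraries, which overlapped. ACTB was 1.62-fold lower with sts than in control (log2 fold change −0.69 ± 0.0749 (SE), adjusted p = 5.99e-09), with a log2 fold change of −0.02, adjusted p = 0.908, for ddp. ACTG1 (ENSG00000184009, chr17:81509413-81523847, minus strand), gamma-actin, was at 2192, 1946 and 2053 CPM in control, 2424, 2626 and 2077 CPM in ddp and 1704, 1924 and 1709 CPM in sts. Its sts libraries lay below all others by a narrower margin (log2 fold change −0.21 ± 0.0783 (SE), adjusted p = 0.0342, against control). The ACTG1 call against control did not hold without control replicate 1 (adjusted p = 0.133), sts replicate 1 (adjusted p = 0.101) or sts replicate 3 (adjusted p = 0.115). With ddp it was not called (log2 fold change 0.20, adjusted p = 0.078), and between vesicle types it was lower with sts (log2 fold change −0.42, adjusted p = 6.78e-05). On the FPKM scale, which divides by gene length, ACTB made up 45.6%, 45.3% and 45.0% of the sum of both actins in the control libraries, 40.2%, 41.6% and 43.02% in ddp and 37.3%, 36.9% and 37.6% in sts. The 3 groups did not overlap, and each exact two-sided permutation test gave p = 0.1, the smallest that 3 against 3 libraries allows. The coding sequences of both genes are nearly the same, and the handling of reads that fit both is unknown here.

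The crosslinkers FLNA and ACTN1 fell with sts against control. FLNA (ENSG00000196924, chrX:154348524-154374634, minus strand), filamin A, was at 530.1, 506 and 486 CPM in control, 519, 669.6 and 501 CPM in ddp and 322, 334 and 272 CPM in sts. FLNA was 1.64-fold lower with sts than in control (log2 fold change −0.71 ± 0.0997 (SE), adjusted p = 1.81e-05) and 1.82-fold lower than with ddp (log2 fold change −0.86 ± 0.0998 (SE), adjusted p = 1.34e-06). Its sts libraries were below all others, ddp replicate 2 was the highest, and ddp overlapped control (log2 fold change 0.15, adjusted p = 0.363). ACTN1, alpha-actinin 1, was at 160.5, 143 and 145 CPM in control, 164, 191 and 160.0 CPM in ddp and 121, 117 and 106 CPM in sts. It was lower with sts than in control (log2 fold change −0.39 ± 0.0808 (SE), adjusted p = 0.000308), without overlap, and was not called with ddp (log2 fold change 0.20, adjusted p = 0.0965). ACTN4 was not tested and is described further on.

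The myosin II chains, which drive contraction, did not share a direction. MYH9, the non-muscle myosin heavy chain, was at 184, 151 and 154 CPM in control, 202, 249 and 196 CPM in ddp and 154, 157 and 138 CPM in sts. It rose with ddp (log2 fold change 0.40 ± 0.0915 (SE), adjusted p = 0.00301), with ddp libraries above all others, and was not called with sts against control (log2 fold change −0.13, adjusted p = 0.321). The light chain MYL12A rose with sts (log2 fold change 0.23, adjusted p = 0.0111), from 233 ± 1.81 to 273 ± 18.5 CPM (mean ± SD, n = 3). That call did not hold without control replicate 1 (adjusted p = 0.0633) or control replicate 2 (adjusted p = 0.0509). MYL12B was called only between vesicle types, higher with sts (log2 fold change 0.18, adjusted p = 0.0468), at 350.0 ± 27.5 against 309.7 ± 9.26 CPM in ddp. This call did not hold without ddp replicate 1 (adjusted p = 0.139), ddp replicate 2 (adjusted p = 0.175), ddp replicate 3 (adjusted p = 0.0646), sts replicate 2 (adjusted p = 0.0878) or sts replicate 3 (adjusted p = 0.207). With ddp against control neither light chain was called. On the FPKM scale MYL12A was 29.7%, 30.2% and 29.6% of the sum of both in control, 29.8%, 28.3% and 27.7% in ddp and 31.03%, 31.4% and 30.4% in sts, with exact two-sided permutation p of 0.3 (ddp) and 0.1 (sts) against control. MYL9, a light chain of smooth muscle, had 33 reads over all 9 libraries and was not tested.

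Tropomyosins, which coil along the filament, separated from each other. TPM1 (ENSG00000140416, chr15:63042632-63071915, plus strand) was at 258, 256 and 236 CPM in control, 323, 309 and 326 CPM in ddp and 161, 163 and 169 CPM in sts. The 3 groups did not overlap. TPM1 rose 1.28-fold with ddp (log2 fold change 0.35 ± 0.0692 (SE), adjusted p = 0.000343) and was 1.52-fold lower with sts (log2 fold change −0.61 ± 0.0700 (SE), adjusted p = 2.39e-08). TPM2 was at 129, 106 and 111 CPM in control, 171, 164 and 138 CPM in ddp and 124, 137 and 136 CPM in sts. It rose with ddp (log2 fold change 0.45 ± 0.0853 (SE), adjusted p = 0.000241), all ddp libraries being above control, and was not called with sts against control (log2 fold change 0.20, adjusted p = 0.0785). Between vesicle types TPM2 was lower with sts (log2 fold change −0.26, adjusted p = 0.0162), which did not hold without ddp replicate 1 (adjusted p = 0.111) or sts replicate 1 (adjusted p = 0.078). TPM3 was at 665 ± 15.04 CPM in control, 734 ± 29.6 in ddp and 588 ± 18.6 in sts (mean ± SD, n = 3) and fell with sts (log2 fold change −0.18, adjusted p = 0.0398). The TPM3 call did not hold without control replicate 1 (adjusted p = 0.1), control replicate 2 (adjusted p = 0.0799), sts replicate 1 (adjusted p = 0.0817) or sts replicate 2 (adjusted p = 0.0789). TPM4 was at 797 ± 29.4 CPM in control, 701 ± 33.4 in ddp and 659 ± 19.99 in sts (mean ± SD, n = 3) and fell with sts (log2 fold change −0.27, adjusted p = 0.00198). Neither was called with ddp (log2 fold change 0.14, adjusted p = 0.158, and log2 fold change −0.18, adjusted p = 0.0631). On the FPKM scale TPM1 was 11.1%, 11.4% and 10.9% of the 4 tropomyosins in control, 12.7%, 12.8% and 13.6% in ddp and 8.22%, 8.19% and 8.19% in sts. Each pair of groups gave p = 0.1 in the exact two-sided permutation test, again the smallest possible.

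Of the calponin family and caldesmon, which bind actin alongside tropomyosin, CNN2, CNN3 and CALD1 fell with sts and none was called with ddp. CNN3 was at 95.8, 102 and 98.8 CPM in control, 87.4, 91.4 and 93.5 CPM in ddp and 54.3, 59.2 and 63.8 CPM in sts. Its sts libraries were well below the rest (log2 fold change −0.74 ± 0.0800 (SE), adjusted p = 6.05e-09, 1.67-fold lower than control). CNN2 was at 34.5, 30.2 and 36.9 CPM in control, 26.01, 33.6 and 29.5 CPM in ddp and 21.2, 22.3 and 23.5 CPM in sts, and its sts libraries also lay below all others (log2 fold change −0.60 ± 0.107 (SE), adjusted p = 4.16e-05). CALD1, caldesmon, was at 187, 184 and 188 CPM in control, 175, 179 and 166 CPM in ddp and 159, 138 and 162 CPM in sts. Its sts libraries were below all others (log2 fold change −0.29 ± 0.0742 (SE), adjusted p = 0.00292, against control), and the difference from ddp was not called (log2 fold change −0.18, adjusted p = 0.0502). TAGLN2, the abundant transgelin of these cells, was at 758 ± 26.0 CPM in control, 730.1 ± 15.99 in ddp and 689 ± 29.8 in sts (mean ± SD, n = 3), with a log2 fold change of −0.14, adjusted p = 0.121, for sts against control. TAGLN, a transgelin typical of smooth muscle and a classic SRF target, was low at 4.78 ± 0.570 CPM in control, 5.59 ± 0.272 in ddp and 6.65 ± 1.58 in sts (mean ± SD, n = 3), with a log2 fold change of 0.48, adjusted p = 0.0769, for sts against control. The TAGLN row held 768 reads in all, and PCSK7, which overlaps it, held 2161, so its values are uncertain. On the FPKM scale TAGLN was 0.203%, 0.197% and 0.254% of the sum of both transgelins in control, 0.277%, 0.256% and 0.258% in ddp and 0.378%, 0.232% and 0.395% in sts, with exact two-sided permutation p of 0.1 (ddp) and 0.2 (sts) against control.

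Focal adhesion and LIM-domain proteins, which link filaments to the membrane, did not share a direction. VCL (ENSG00000035403, chr10:73995193-74121363, plus strand), vinculin, was at 177, 181 and 185 CPM in control, 197, 264 and 213 CPM in ddp and 107, 98.6 and 96.8 CPM in sts. The 3 groups did not overlap. VCL was 1.80-fold lower with sts than in control (log2 fold change −0.85 ± 0.0863 (SE), adjusted p = 4.02e-09) and 2.23-fold lower than with ddp (log2 fold change −1.16 ± 0.0864 (SE), adjusted p = 4.42e-12). The rise with ddp against control (log2 fold change 0.31 ± 0.0844 (SE), adjusted p = 0.0101) did not hold without ddp replicate 2 (adjusted p = 0.171), the highest ddp library. AP3M1, which overlaps VCL on the opposite strand, held 14456 reads against 23216 for VCL, and the labels do not say that the counting used strand. PDLIM7 (ENSG00000196923, chr5:177483394-177497606, minus strand), a PDZ and LIM adaptor, was at 20.6, 18.1 and 22.3 CPM in control, 37.5, 37.8 and 27.0 CPM in ddp and 40.5, 44.3 and 36.6 CPM in sts. Both vesicle groups lay above control, at 1.68-fold for ddp (log2 fold change 0.75 ± 0.119 (SE), adjusted p = 4.44e-05) and 1.99-fold for sts (log2 fold change 0.99 ± 0.119 (SE), adjusted p = 1.8e-07). PDLIM5, a related adaptor, was at 414, 445 and 449 CPM in control, 288, 309 and 352 CPM in ddp and 489, 452 and 529 CPM in sts. It fell with ddp (log2 fold change −0.46 ± 0.0773 (SE), adjusted p = 4.44e-05), with every ddp library below the others, and was higher with sts than with ddp (log2 fold change 0.63, adjusted p = 5.59e-08). LIMA1, a LIM protein that stabilises filaments, was at 21.8, 19.4 and 22.2 CPM in control, 16.9, 15.6 and 17.3 CPM in ddp and 22.8, 22.9 and 24.1 CPM in sts. Its ddp libraries were the lowest (log2 fold change −0.35 ± 0.111 (SE), adjusted p = 0.0283), and this call did not hold without control replicate 1 (adjusted p = 0.0956), control replicate 3 (adjusted p = 0.117), ddp replicate 1 (adjusted p = 0.0653) or ddp replicate 2 (adjusted p = 0.113). LIMA1 was also higher with sts than with ddp (log2 fold change 0.49, adjusted p = 0.000596). Talin (TLN1), which couples integrins to actin, showed a log2 fold change of −0.17, adjusted p = 0.185, for sts against control, at 89.1 ± 1.40 CPM in control, 88.5 ± 13.3 in ddp and 79.4 ± 8.82 in sts (mean ± SD, n = 3). FHL2, a LIM-only protein and SRF target, was at 57.9 ± 1.29 CPM in control, 61.6 ± 4.25 in ddp and 53.6 ± 5.21 in sts (mean ± SD, n = 3), with a log2 fold change of −0.11, adjusted p = 0.352, for sts against control. Zyxin (ZYX), a LIM protein of focal adhesions, had 338 reads over all libraries, at 2.47 ± 0.495 CPM in control, 3.08 ± 2.41 in ddp and 1.80 ± 0.587 in sts (mean ± SD, n = 3), with a log2 fold change of −0.46, adjusted p = 0.588, for sts against control. Without ddp replicate 2 the ZYX log2 fold change for ddp against control went from 0.32 to −0.46.

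Genes that bind monomers or turn filaments over also split. CORO1C (ENSG00000110880, chr12:108645109-108731526, minus strand), coronin 1C, was at 276, 268 and 222 CPM in control, 314, 306 and 314 CPM in ddp and 146, 140.4 and 159 CPM in sts. The sts libraries were below all others and the ddp libraries above control. CORO1C was 1.72-fold lower with sts than in control (log2 fold change −0.78 ± 0.0787 (SE), adjusted p = 1.34e-09) and 2.10-fold lower than with ddp (log2 fold change −1.07 ± 0.0788 (SE), adjusted p = 1e-12). The rise with ddp (log2 fold change 0.29 ± 0.0774 (SE), adjusted p = 0.00899) did not hold without control replicate 3 (adjusted p = 0.143). WDR1, which helps cofilin disassemble filaments, was at 186, 159 and 175 CPM in control, 169, 185 and 165 CPM in ddp and 125, 125 and 118 CPM in sts. It fell with sts, without overlap (log2 fold change −0.50 ± 0.0762 (SE), adjusted p = 3.6e-06), and was at 173 ± 13.4 CPM in control and 173 ± 10.6 CPM in ddp (mean ± SD, n = 3). Profilin (PFN1) rose with ddp (log2 fold change 0.27, adjusted p = 0.0135) and fell with sts (log2 fold change −0.22, adjusted p = 0.0217), from 1068 ± 79.3 CPM in control to 1286 ± 85.5 in ddp and 914 ± 85.8 in sts (mean ± SD, n = 3). The sts libraries of PFN1 overlapped control. The PFN1 call for ddp did not hold without control replicate 2 (adjusted p = 0.129), ddp replicate 1 (adjusted p = 0.0824) or ddp replicate 2 (adjusted p = 0.0609). That for sts did not hold without control replicate 1 (adjusted p = 0.0997), control replicate 3 (adjusted p = 0.0534), sts replicate 1 (adjusted p = 0.0923) or sts replicate 3 (adjusted p = 0.0774). Cofilin (CFL1) was at 821 ± 62.01 CPM in control, 1043 ± 54.8 in ddp and 787 ± 60.4 in sts (mean ± SD, n = 3). It rose with ddp (log2 fold change 0.34, adjusted p = 0.00101) and showed a log2 fold change of −0.06, adjusted p = 0.575, for sts against control. The thymosins, which sequester monomers, went the other way between vesicle types. TMSB10 was at 1293, 1077 and 1058 CPM in control, 1315, 1115 and 1118 CPM in ddp and 1307, 1544 and 1467 CPM in sts. Its sts libraries were all above control (log2 fold change 0.33 ± 0.0841 (SE), adjusted p = 0.00291) and overlapped ddp. TMSB10 was called higher with sts than with ddp (log2 fold change 0.28, adjusted p = 0.00842), which did not hold without ddp replicate 2 (adjusted p = 0.0682) or sts replicate 2 (adjusted p = 0.0537). TMSB4X was at 1918 ± 79.9 CPM in control, 1845 ± 5.57 in ddp and 2147 ± 172 in sts (mean ± SD, n = 3). It was higher with sts than with ddp (log2 fold change 0.22, adjusted p = 0.0118), which did not hold without ddp replicate 2 (adjusted p = 0.0529) or sts replicate 2 (adjusted p = 0.0954). It was not called against control (log2 fold change −0.06, adjusted p = 0.664, for ddp and log2 fold change 0.16, adjusted p = 0.0711, for sts). On the FPKM scale TMSB4X was 29.6%, 32.1% and 32.2% of the sum of both thymosins in control, 27.6%, 30.9% and 30.8% in ddp and 29.3%, 29.1% and 27.9% in sts, with exact two-sided permutation p of 0.4 (ddp) and 0.1 (sts) against control.

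Of the 4 members that act in branching and capping, CAPG, ARPC5, ARPC2 and CAPZB, none was called with sts against control. Some other genes of these roles were called, among them the Arp2/3 subunits ACTR2 (log2 fold change −0.37, adjusted p = 0.000129) and ACTR3 (log2 fold change −0.41, adjusted p = 4.48e-05), which fell. The other listed Arp2/3 subunits, ARPC1A, ARPC1B, ARPC3, ARPC4 and ARPC5L, and the capping subunits CAPZA1 and CAPZA2 were not called in that comparison. CAPG (ENSG00000042493, chr2:85394753-85418432, minus strand), a capping protein of the gelsolin family, was at 84.8, 77.1 and 83.98 CPM in control, 49.95, 49.3 and 45.7 CPM in ddp and 85.1, 97.7 and 83.3 CPM in sts. Its ddp libraries lay below all others, and CAPG was 1.70-fold lower with ddp than in control (log2 fold change −0.76 ± 0.0836 (SE), adjusted p = 2.5e-08). It was 1.84-fold higher with sts than with ddp (log2 fold change 0.88 ± 0.0836 (SE), adjusted p = 3.17e-10), and showed a log2 fold change of 0.11, adjusted p = 0.306, for sts against control. ARPC5, a subunit of the branching complex Arp2/3, was at 319 ± 13.5 CPM in control, 272 ± 8.50 in ddp and 298 ± 18.8 in sts (mean ± SD, n = 3). It fell with ddp (log2 fold change −0.23, adjusted p = 0.0239), which did not hold without control replicate 1 (adjusted p = 0.125), control replicate 2 (adjusted p = 0.0761), ddp replicate 1 (adjusted p = 0.117) or ddp replicate 3 (adjusted p = 0.0718). ARPC2, another subunit, was at 344 ± 15.03 CPM in control, 359 ± 15.5 in ddp and 357 ± 21.5 in sts. The capping subunit CAPZB was at 99.7 ± 8.68 CPM in control, 97.7 ± 2.60 in ddp and 87.6 ± 6.04 in sts (mean ± SD, n = 3).

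The linkers between actin and the plasma membrane differed from each other. EZR (ENSG00000092820, chr6:158765741-158819368, minus strand), ezrin, was at 515, 492 and 462 CPM in control, 377, 385 and 393 CPM in ddp and 277, 278 and 285 CPM in sts. The 3 groups were ordered control, ddp, sts without overlap. EZR was lower than control with ddp (log2 fold change −0.35 ± 0.0682 (SE), adjusted p = 0.000354) and 1.75-fold lower with sts (log2 fold change −0.80 ± 0.0688 (SE), adjusted p = 3.95e-11), and lower with sts than with ddp (log2 fold change −0.46, adjusted p = 2.06e-06). MSN, moesin, was at 268 ± 8.01 CPM in control, 321 ± 30.4 in ddp and 267 ± 9.29 in sts (mean ± SD, n = 3). It rose with ddp (log2 fold change 0.26, adjusted p = 0.0125), which did not hold without control replicate 1 (adjusted p = 0.0676) or ddp replicate 2 (adjusted p = 0.144). It showed a log2 fold change of −0.01, adjusted p = 0.949, for sts against control, and was lower with sts than with ddp (log2 fold change −0.27, adjusted p = 0.00363).

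**Figure D2:**
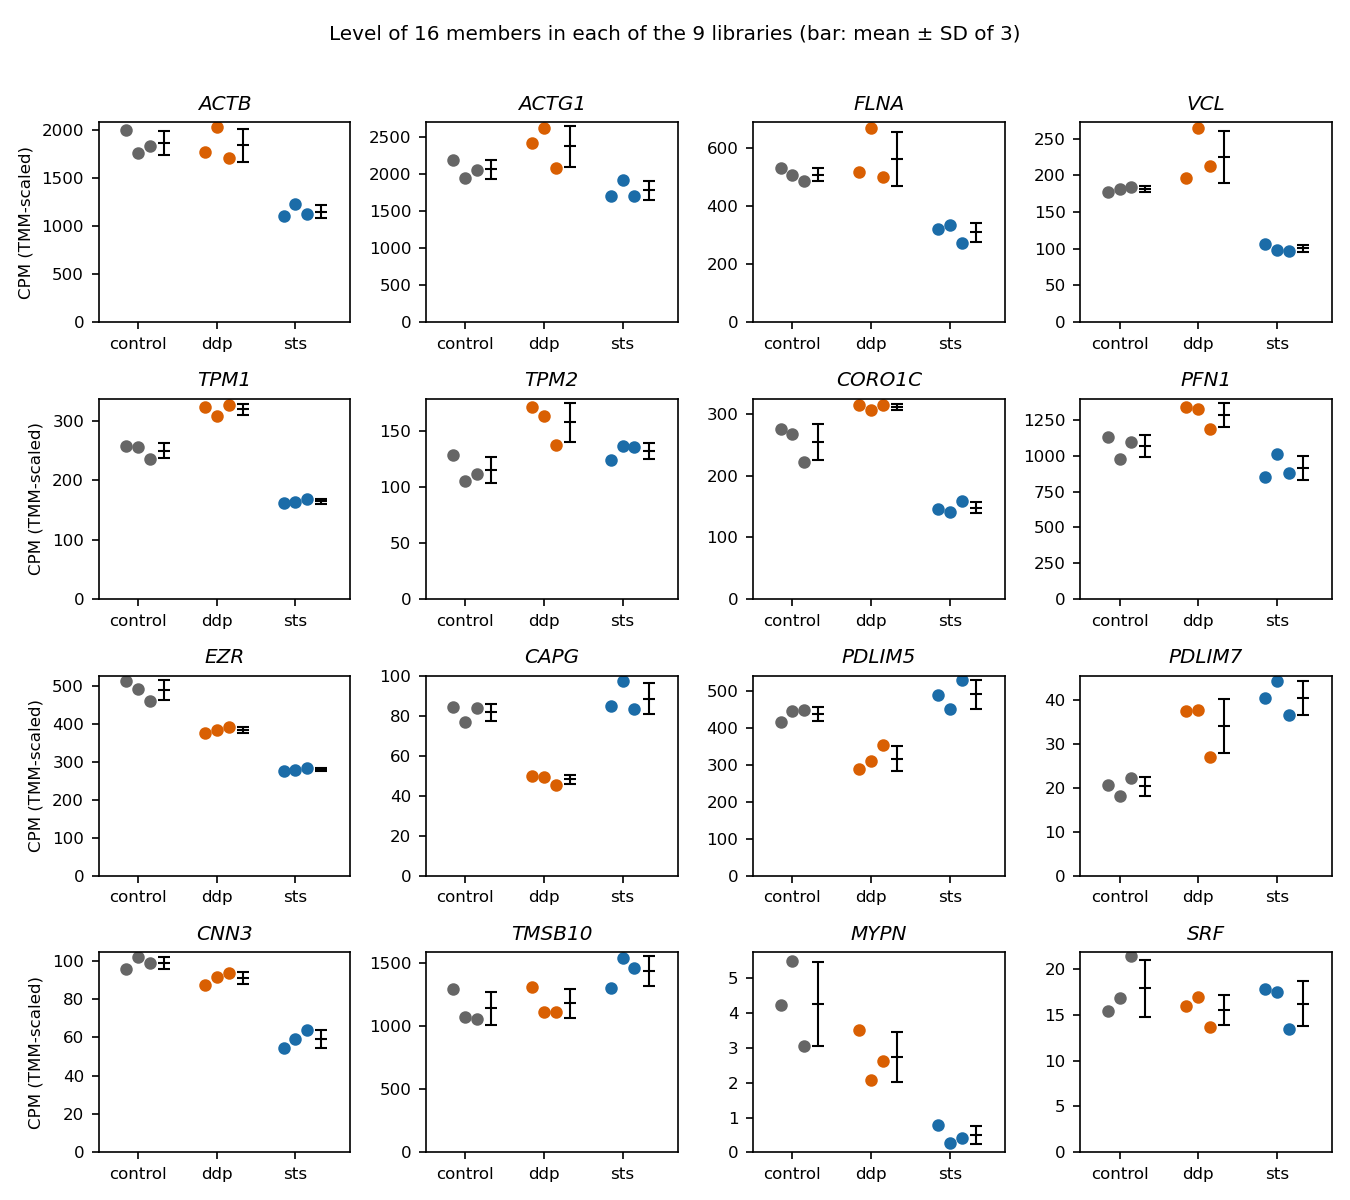
CPM on a TMM-scaled library size in each of the 9 libraries for 16 members, with the mean ± SD of 3 libraries beside the points and every axis starting at 0. ACTB, FLNA, VCL, TPM1, CORO1C, EZR, CNN3 and MYPN have all sts points below all control points, CAPG and PDLIM5 have their lowest points in ddp, and PDLIM7 is lowest in control.

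The libraries within a group were not equal for these genes. Among the 3 ddp libraries, replicate 2 was the highest for 17 of 37 tested members. Control replicate 1 was the highest of its group for 22, and sts replicate 2 for 18. No such count over all genes is given here, so these numbers do not show a difference particular to the members. Of the 14 members called with ddp, 4 kept the call under every alternative setting and every left-out library. Those 4 were TPM1, which rose, and CAPG, EZR and PDLIM5, which fell. In every such fit that tested them, calls were likewise kept for 14 of the 19 members called with sts and 20 of the 25 called between vesicle types. MYPN, among those 14, was not tested by limma with its filter, which dropped genes below a mean of 1 FPKM. On log2(FPKM + 1), limma did not call VCL (adjusted p = 0.0774), PFN1 (adjusted p = 0.0702), CORO1C (adjusted p = 0.0556) or ARPC5 (adjusted p = 0.0616) with ddp, nor ACTG1 (adjusted p = 0.0887) or PFN1 (adjusted p = 0.0593) with sts against control.

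Levels between genes were compared on the FPKM scale. In control the thymosin TMSB10 was highest at 2455 ± 283 FPKM, followed by TMSB4X at 1115 ± 48.1, PFN1 at 661 ± 47.03, ACTG1 at 504 ± 29.4, ACTB at 418 ± 27.7 and TAGLN2 at 332 ± 12.2 (mean ± SD, n = 3). The control libraries of these 6 genes did not overlap from one gene to the next. EZR at 148 ± 8.48 and CFL1 at 139 ± 10.1 overlapped, as did each neighbour in the run FLNA, MSN, TPM3, CORO1C, PDLIM5, TPM2, CNN3 and CAPG. Neighbours also overlapped in the pair TPM1 and VCL, in the run ACTN1, MYH9, CNN2, TLN1 and FHL2, in the run CAPZB, PDLIM7 and SRF, and in the pair ZYX and TAGLN. At the low end were SRF at 4.18 ± 0.712, LIMA1 at 3.32 ± 0.228, ZYX at 0.748 ± 0.152, TAGLN at 0.722 ± 0.0822 and MYPN at 0.497 ± 0.144. The deposited gene lengths limit this order, since the length used for CAPZB was 5.90 times the length of its GENCODE v29 exons, that for MYH9 1.89 times and that for TPM3 1.81 times.

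ACTN4 and MYL9 failed the filter on low counts. ACTN4, alpha-actinin 4 (chr19:38647649-38731589, plus strand), had 15 reads over all 9 libraries. Neighbouring rows on chromosome 19 were also near 0, with 13 reads for EIF3K, 2 for ECH1, 8 for HNRNPL and 0 for SIRT2, SARS2 and MRPS12, while PSMD8 before them had 45857 and FBXO27 after them 895. Rows without a gene ID on a patch scaffold of chromosome 19 had nearly the same ends as ACTN4 and the neighbours near 0 named here. The scaffold row matching MRPS12 held 0 reads, and the others held reads. The row matching ACTN4 held 6807 reads, and those matching EIF3K, ECH1 and HNRNPL held 8714, 4153 and 2954. The ACTN4-like row was at 71.5, 50.1 and 54.2 CPM in control, 35.2, 41.9 and 32.8 CPM in ddp and 45.9, 97.7 and 22.9 CPM in sts. It was not called with ddp (log2 fold change −0.68, adjusted p = 0.464) or with sts (−0.08, adjusted p = 0.931), where the value without sts replicate 2 was −0.77. Whether its reads come from ACTN4 was not tested, and the level in the ACTN4 row cannot be read as low expression.

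**Figure D3:**
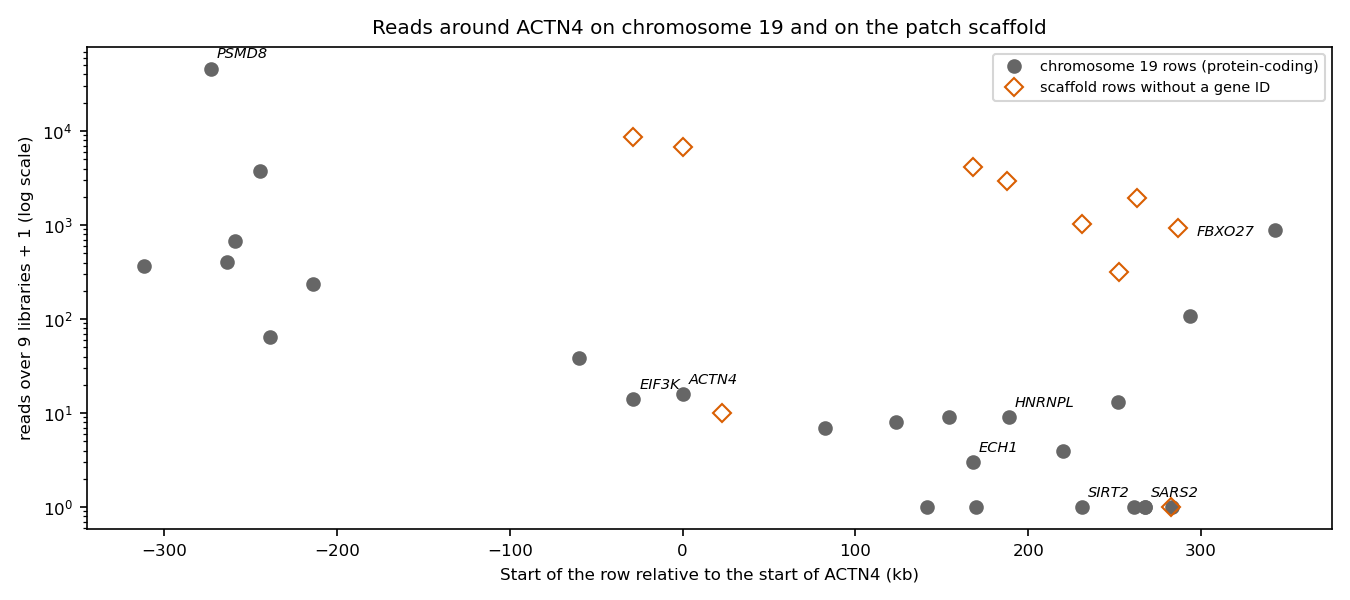
Reads summed over 9 libraries plus 1 (log scale) against the start of each row relative to ACTN4 in kb, for protein-coding rows of chromosome 19 (filled) and rows without a gene ID on the patch scaffold (open). Filled points from EIF3K to SARS2 lie at 13 reads or fewer except ACTN4 at 15, and the open points at the starts of EIF3K and ACTN4 lie at 8714 and 6807 reads.

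Other genes of the pathway were taken from lists that include the SRF cofactors, further known SRF targets, and further filament and adhesion proteins. Of 97 listed, 88 were tested. With sts against control 33 fell and 13 rose, a share called of 52.3%, with a median log2 fold change of −0.10. With ddp 13 fell and 12 rose, 28.4%, with a median of −0.01. Between vesicle types 38 were lower and 17 higher with sts, 62.5%, with a median of −0.18. The shares over all genes tested were 32.8%, 15.5% and 39.7%, in the same order.

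Both MRTFs, the actin-sensing cofactors, were called lower with sts. MRTFA fell with ddp (log2 fold change −0.39 ± 0.103 (SE), adjusted p = 0.00799) and with sts (log2 fold change −0.31 ± 0.104 (SE), adjusted p = 0.0201). The MRTFA call for sts did not hold without control replicate 2 (adjusted p = 0.0603), control replicate 3 (adjusted p = 0.063) or sts replicate 3 (adjusted p = 0.109). MRTFB fell with sts (log2 fold change −0.38 ± 0.112 (SE), adjusted p = 0.0088), which did not hold without control replicate 2 (adjusted p = 0.0505) or sts replicate 2 (adjusted p = 0.0849). It was not called with ddp (log2 fold change 0.14, adjusted p = 0.449), and the difference between vesicle types was itself called (log2 fold change −0.52, adjusted p = 0.000393). ELK3, a ternary complex factor that also partners SRF, rose with ddp (log2 fold change 0.30, adjusted p = 0.0101) and sts (log2 fold change 0.41, adjusted p = 0.000224), the former not holding without control replicate 3 (adjusted p = 0.0581). ELK1 and ELK4 were called in no comparison, and MYOCD was not tested.

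Of 21 further SRF targets tested, 6 fell and 5 rose with sts against control, 52.4% beside 32.8% of all genes. With ddp 4 fell and 3 rose, 33.3% beside 15.5%. CCN2, a secreted matrix-associated protein, was at 34.6, 34.9 and 33.3 CPM in control, 14.1, 14.1 and 14.8 CPM in ddp and 3.72, 3.17 and 3.59 CPM in sts. The groups did not overlap, and CCN2 was 9.80-fold lower with sts (log2 fold change −3.29 ± 0.135 (SE), adjusted p = 6.69e-19) and 2.39-fold lower with ddp (log2 fold change −1.26 ± 0.113 (SE), adjusted p = 3.63e-10) than in control. CCN1, of the same family, was 6.90-fold lower with sts (log2 fold change −2.79 ± 0.138 (SE), adjusted p = 2.71e-15) and 1.59-fold lower with ddp (log2 fold change −0.67 ± 0.117 (SE), adjusted p = 0.00012). MYLK, the kinase of myosin light chain, was 3.08-fold lower with sts (log2 fold change −1.62 ± 0.106 (SE), adjusted p = 7.81e-14). FOSB, FOS and JUNB, immediate early genes that code for subunits of the AP-1 transcription factor, rose with sts against control, FOSB by 2.13 (adjusted p = 0.0352), FOS by 1.20 (adjusted p = 0.0321) and JUNB by 0.94 (adjusted p = 0.001) on the log2 scale. EGR1 (log2 fold change −0.04, adjusted p = 0.943) and IER2 (log2 fold change 0.21, adjusted p = 0.176) were not called in that comparison. FOS was at 73.99, 71.9 and 134 CPM in control, 47.9, 38.5 and 74.5 CPM in ddp and 214, 212 and 218 CPM in sts. The calls of FOS and FOSB against control did not hold without control replicate 1, control replicate 2 or any 1 of the sts replicates (adjusted p up to 0.108 for FOS and 0.101 for FOSB). EGR1 was higher with sts than with ddp (log2 fold change 1.36, adjusted p = 0.0262), which did not hold without ddp replicate 1 (adjusted p = 0.0817), ddp replicate 2 (adjusted p = 0.0848), sts replicate 1 (adjusted p = 0.0724) or sts replicate 2 (adjusted p = 0.0745). FHL1 rose with ddp (log2 fold change 0.85, adjusted p = 7.98e-08) and sts (log2 fold change 0.67, adjusted p = 2.53e-06), and so did ITGA5, an integrin subunit (log2 fold change 0.78, adjusted p = 4.01e-05, and log2 fold change 0.74, adjusted p = 3.32e-05).

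Of 41 further filament and adhesion proteins, 15 fell and 4 rose with sts against control, 46.3% beside 32.8% of all genes. With ddp 4 fell and 5 rose, 22% beside 15.5% of all genes. SVIL, supervillin, rose with sts (log2 fold change 0.97 ± 0.103 (SE), adjusted p = 4.02e-09). FSCN1, the bundler fascin, rose with ddp (log2 fold change 0.72, adjusted p = 0.000584), while GSN, gelsolin (log2 fold change −0.72, adjusted p = 1e-06), and the coronin CORO1B (log2 fold change −0.57, adjusted p = 3.3e-05) fell. EPS8, an actin capping and signalling protein, was higher with sts than with ddp (log2 fold change 0.99, adjusted p = 2.16e-12).

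**Figure D4:**
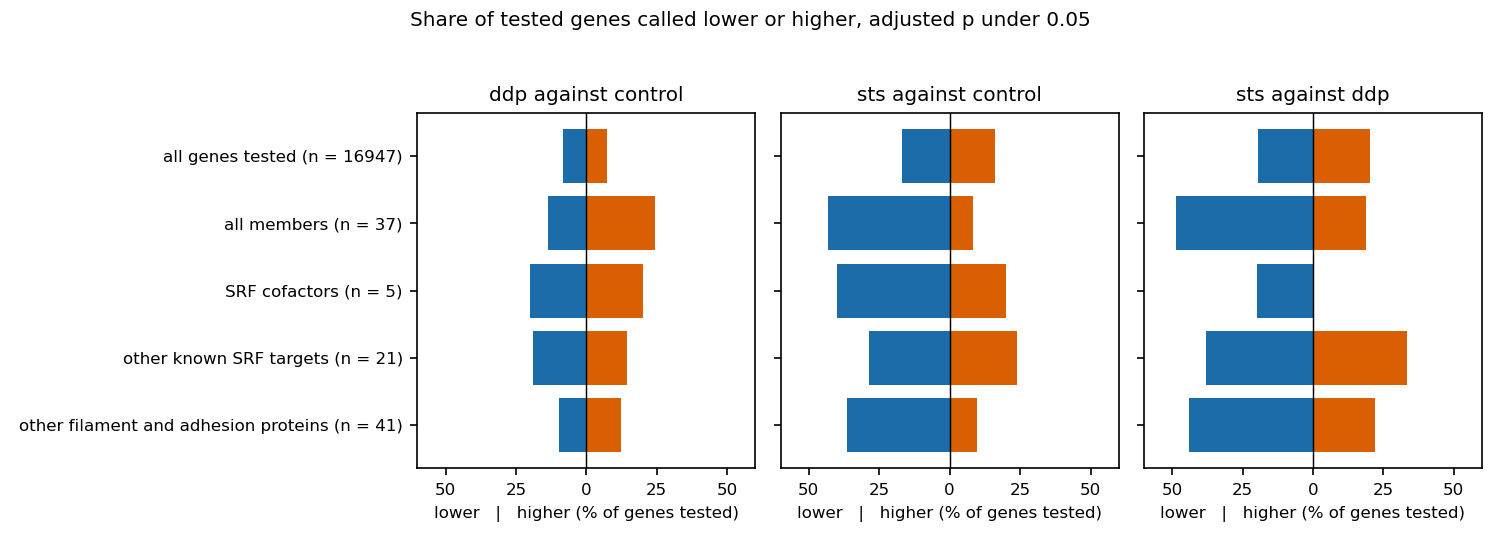
Share of tested genes called lower (left) or higher (right) at an adjusted p under 0.05 in 3 comparisons, for all 16947 genes, the 37 tested members and 3 lists of other pathway genes. In sts against control the bars reach further left than right for the members (16 of 37 against 3) and for the further filament and adhesion proteins (15 of 41 against 4).

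The calls of all tested genes were also counted by the presence of a CArG box. Of 167 tested genes with a box, 45 (26.9%) fell and 32 (19.2%) rose with sts against control, and of 11281 tested genes with a window 19.6% fell and 17.3% rose. The median log2 fold change was −0.00090 with a box and −0.0031 over all genes with a window. With ddp the shares were 8.98% lower and 8.38% higher with a box, and 9.13% and 8.15% over all genes with a window. For sts against ddp they were 33.5% lower and 19.8% higher with a box, and 23.1% and 21.9% over all genes with a window. The 7 members with a box are counted among the 167 genes. Of these members, ACTG1, ACTN1, CNN2, FLNA and TPM4 fell with sts, and SRF and FHL2 were not called.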

How the data were processed

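RNA from A549 cells was made into libraries with an NEBNext Ultra kit, per the labels' protocols. Per the submitters' processing notes the build was hg38 and the tools included HISAT2 2.0.5, StringTie 1.3.3b and featureCounts 1.5.0-p3, with no roles given. The authors deposited whole-number read counts per gene. The authors also deposited FPKM values, which are these counts scaled by gene length and depth, with a further factor of 0.944 to 1.01 that differs between libraries. Rows without a gene ID (705) held 0.313% to 0.357% of the counts. Depth per library ranged from 13799950 to 16526399 counts, and the biological coefficient of variation was 0.0992.

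Counts were tested with edgeR 4.0.16 (R 4.3.3), quasi-likelihood with robust settings, TMM scaling, edgeR's default filter on low counts, and all 9 libraries in 1 fit. P-values were adjusted by Benjamini-Hochberg over 16947 genes and called under 0.05. The SE was obtained from the fold change and its F statistic. CPM use the TMM-scaled library size, except for marker sums, which use unscaled totals. Groups came from the sample titles. Shares within gene families were compared by an exact two-sided permutation test. The scripts were tested on simulated counts. Alternatives were other scalings, other filters, DESeq2 1.42.0, limma 3.58.1 on log2(FPKM + 1) and log2(FPKM + 0.1), a replicate block, fits of 2 groups alone, and leaving out single libraries.

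The members and lists were chosen with earlier results of these data known. Values per library were given for ACTB, ACTG1, SRF, MYPN and the called members with the largest log2 fold change, up to 14 for sts against control and 8 for each other comparison. From the pathway lists up to 4 called genes in each direction and comparison were named, and the SRF cofactors. ACTR2, ACTR3 and IER2 were chosen after their values were seen. One list and some named genes are left out of the text.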

Additional observations from a re-analysis of the deposited data

How the results depend on the processing

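Limma on log2(FPKM + 1) without a filter gave fewer calls. It called 1 member higher and 3 lower with ddp, 1 higher with sts against control and 4 higher with sts against ddp. It called 6 pathway genes higher and 6 lower with ddp and 11 higher with sts against ddp. Over all genes it called 345 higher and 442 lower with ddp, 1542 higher and 1770 lower with sts, and 2063 higher with sts against ddp. With its filter, limma called 808 genes higher and 809 lower with ddp, and 825 lower on log2(FPKM + 0.1). Without a filter on low counts edgeR called 3 members lower with ddp, and with upper-quartile factors it called 7 members higher with sts against control. The cause was not tested.

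Leaving out 1 library in turn gave 3 to 4 members lower and 6 to 10 higher with ddp, 13 to 16 lower and 2 to 5 higher with sts against control, and 4 to 7 higher with sts against ddp. It gave 7 to 11 pathway genes higher with ddp and 11 to 14 with sts against ddp. Of all genes, 787 to 1028 were called higher and 1030 to 1208 lower with ddp. With sts against control 2083 to 2515 of all genes were higher and 2453 to 2752 lower, and 2889 to 3127 were higher with sts against ddp. The lowest count of pathway genes and of all genes higher with ddp came without control replicate 3, the lowest of members higher with sts against ddp without ddp replicate 2 or sts replicate 2. Members lower with ddp were 3 without control replicate 1 or ddp replicate 1, and members higher with sts against control were 5 without sts replicate 1 or sts replicate 2.

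Small uncalled changes turned sign. WDR1 with ddp went to 0.0026 (median-of-ratios factors), 0.0047 (DESeq2), 0.0054 (limma, with or without a filter) and 0.0056 (pseudocount 0.1). With upper-quartile factors MSN with sts against control went to 0.018, ARPC2 with sts against ddp to 0.023 and ELK4 with sts against ddp to 0.014. EGR1 with sts against control went to 0.012 with the replicate block, and from −0.18 to 0.18 with 1 library left out. With 1 library left out, log2 fold changes ranged as follows: ACTB (ddp against control) from −0.097 to 0.036, ARPC2 (sts against ddp) from −0.055 to 0.031, CAPZB (ddp against control) from −0.094 to 0.032, ELK4 (ddp against control) from −0.11 to 0.0062, ELK4 (sts against ddp) from −0.060 to 0.044, MSN (sts against control) from −0.045 to 0.019. Further ranges were SRF (sts against ddp) from −0.020 to 0.18, TLN1 (ddp against control) from −0.14 to 0.066, TMSB10 (ddp against control) from −0.033 to 0.15, WDR1 (ddp against control) from −0.062 to 0.050, ZYX (ddp against control) from −0.46 to 0.76, row matching ACTN4 (sts against control) from −0.77 to 0.29, row matching ACTN4 (sts against ddp) from −0.091 to 0.97.

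With CPM in place of FPKM the share of ACTN1 in ACTN1 and ACTN4 with ddp differed from control by −0.0753 percentage points (−0.176 on FPKM), that of TAGLN by 0.131 (ddp), 0.335 (sts) and 0.204 (sts against ddp), and that of TPM1 by 3.02 (ddp) and −6.06 (sts against ddp). Same-numbered libraries of different groups correlated between −0.0847 and 0.0547 in their deviations, and not every library correlated best with its own number. Whether same-numbered libraries were cultured or handled together cannot be read from these correlations. With the replicate block 9 members were called higher and 4 lower with ddp, 3 higher and 15 lower with sts, and 6 higher and 18 lower with sts against ddp. Counts over all genes with the block are not given here, so these numbers cannot be set against the share of all genes.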

Other observations

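Rows named as pseudogenes of the members also held reads. The 6 TMSB4X pseudogene rows held 19792 reads against 267099 in the TMSB4X row. Of the reads in all these rows together, the pseudogene rows held 6.60% to 6.98% in control, 6.20% to 9.43% in ddp and 5.17% to 6.81% in sts. The 9 TPM3 pseudogene rows held 2010 reads and the 3 of TPM4 held 1135. The 21 ACTG1 pseudogene rows held 525 reads and the 12 of ACTB held 82.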
